A study of Mus musculus with 6 samples.

Results

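The Schlafen family was followed through bulk RNA-seq of splenic CD8+ T cells from tumour-bearing mice, collected on day 35. The members were named by symbol and matched to the gene identifiers of the expression files, and all 7 (Slfn1, Slfn2, Slfn3, Slfn4, Slfn5, Slfn8 and Slfn9) were found among 28773 genes. There were 6 samples in 2 groups of 3. In both groups the primary tumour had been destroyed by microwave ablation (MWA), a local heat treatment. The control group, MWA+PBS (replicates 1 to 3), was then injected intraperitoneally with buffer, and the MWA+2DG group (replicates 4 to 6) with 2-deoxy-D-glucose (2DG), which competes with glucose and inhibits glycolysis. In the study's methods these injections were repeated and had ended before day 35. The labels give neither the mouse strain, age and tumour line behind these 6 libraries nor whether each library came from 1 mouse or a pool, so the p-values measure the spread between these samples, which may be technical. According to the study's methods, its mice were female and the cells were taken from splenocytes with a CD8+ T cell isolation kit after lysis of red cells.

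Schlafen genes take their name from the German verb for sleeping, because forced expression of the founding member, Slfn1, arrests thymocytes and T cells in the cell cycle. Mouse proteins are sorted by length into a short group (Slfn1 and Slfn2), an intermediate group (Slfn3 and Slfn4) and a long group (Slfn5, Slfn8 and Slfn9), the last of which carries a helicase-like C-terminal region. Several of the genes are induced by type I interferon, and Slfn2 holds T cells in quiescence and protects tRNAs from cleavage during oxidative stress. In the RefSeq gene order all members lie in 1 cluster on mouse chromosome 11, in the order Slfn5, Slfn9, Slfn8, Slfn10-ps, Slfn2, Slfn1, Slfn4, Slfn3 and Slfn14.

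The promoters are shown first, because members that lie side by side differed in how they responded. All 7 members had an entry in the RefSeq promoter table (build GRCm38.p6), and the 250 bases before each annotated start were searched on both strands. The core of the interferon-stimulated response element (ISRE), GAAANNGAAA or its complement TTTCNNTTTC, was present in 3 of 7 members (Slfn5, Slfn8 and Slfn9) and in 3.46% of 27025 genes with a promoter. The neighbouring genes Slfn8 and Slfn9 were read from the minus strand at chr11:83020811-83021060 and chr11:82991831-82992080. They are printed whole, 5′ to 3′ with the ISRE match in capitals, because these neighbours with similar promoters moved in opposite directions.
Slfn8: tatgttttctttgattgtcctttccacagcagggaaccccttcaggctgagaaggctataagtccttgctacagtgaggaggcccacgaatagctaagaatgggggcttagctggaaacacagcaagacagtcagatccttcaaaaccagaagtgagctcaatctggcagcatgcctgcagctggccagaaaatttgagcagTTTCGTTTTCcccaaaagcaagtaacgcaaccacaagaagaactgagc
Slfn9: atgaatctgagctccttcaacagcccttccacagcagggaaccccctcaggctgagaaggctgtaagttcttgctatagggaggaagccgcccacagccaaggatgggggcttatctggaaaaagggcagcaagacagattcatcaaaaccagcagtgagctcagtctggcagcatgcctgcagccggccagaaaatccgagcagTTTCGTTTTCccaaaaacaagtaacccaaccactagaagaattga
The match began 48 bases before the start of Slfn8 and 45 bases before that of Slfn9, with the same letters in both. Slfn8 has a second annotated start, from which the same match lay 136 bases upstream. Of 242 aligned positions, 206 were identical (85.1%), against 55.6% to 67.6% for the other pairs of members. In Slfn5, on the plus strand, the match began 155 bases before the start and lay in a run of A, shown here with 15 bases on either side.
Slfn5: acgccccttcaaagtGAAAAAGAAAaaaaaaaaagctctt
The short and intermediate members held no ISRE core in these windows. They shared another run of 9 letters, ACTTCCTGG, which was looked for after the sequences had been seen and occurs on either strand in 0.829% of genes with a promoter. It began 74, 55, 42 and 73 bases before the starts of Slfn1, Slfn2, Slfn3 and Slfn4, and is in capitals in the last 100 bases before each start (plus strand, chr11:83116720-83116819, chr11:83065012-83065111, chr11:83191230-83191329 and chr11:83175086-83175185).
Slfn1: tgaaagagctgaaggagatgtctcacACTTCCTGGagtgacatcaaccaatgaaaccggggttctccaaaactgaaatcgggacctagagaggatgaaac
Slfn2: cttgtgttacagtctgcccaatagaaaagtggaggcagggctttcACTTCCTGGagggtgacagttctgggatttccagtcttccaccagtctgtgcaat
Slfn3: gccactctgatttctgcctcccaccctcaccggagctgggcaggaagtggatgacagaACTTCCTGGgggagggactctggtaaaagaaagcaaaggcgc
Slfn4: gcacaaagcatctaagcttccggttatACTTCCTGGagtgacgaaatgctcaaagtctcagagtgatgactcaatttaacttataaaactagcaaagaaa
In Slfn1 and Slfn4 the shared run extended to 15 letters, a stretch found in no other promoter of the table. The core of the gamma-activated site (GAS), TTCNNNGAA, was in 0 of 7 members and in 8.13% of genes. The AP-1 core TGANTCA was in 1 of 7, Slfn4, 34 bases before the start, and in 7.82% of genes. No 2 of the motif matches overlapped. They are letters in a window and do not show that a factor was bound.

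The libraries differed in more than the T cells. Summed FPKM of 18 T lineage genes was 2207 to 2363 in MWA+PBS against 3116 to 3357 after MWA+2DG, and 17 of the 18 genes were called higher (22.3% of all genes). All marker lists below had at least 1 sample above 0 for each gene. The 12 neutrophil genes summed to 67.0 to 91.9 in MWA+PBS against 1596 to 1777 in MWA+2DG. For 14 monocyte and macrophage genes the sums were 822 to 891 against 118 to 128. For 8 B cell genes they were 9.15 to 10.3 against 51.9 to 57.6, and for 8 erythroid genes 292 to 348 against 66.9 to 84.9. Sums of 7 natural killer cell genes overlapped between the groups (124 to 135 and 128 to 137), and those of 8 dendritic cell genes were 16.6 to 19.2 and 11.98 to 15.3. Their part in the results below was not tested, and in bulk RNA fewer cells of a type and less RNA per cell cannot be told apart. Every member was therefore also fitted after the T lineage genes had been set to the same mean log2 level in all samples (T lineage scaling). That step lowers every log2 fold change by 0.45 and moved the median over all genes from 0.05 to -0.41.

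In MWA+2DG, 5 of the 7 members were higher than in MWA+PBS (Slfn1, Slfn2, Slfn4, Slfn5 and Slfn8), 1 was lower (Slfn9) and 1 was not called (Slfn3), although T lineage scaling reversed the direction of Slfn2 and Slfn5. The changes ran from a rise of 36.5-fold in mean FPKM for Slfn4 to a level 0.788 times that of the control for Slfn9. All 7 members passed the filter of a mean of at least 1 FPKM (fragments scaled to transcript length and to sequencing depth), Slfn4 only through the MWA+2DG samples. The calls are at a Benjamini-Hochberg adjusted p under 0.05 from limma on log2(FPKM + 1) over 12444 genes. By the same call 22.3% of all genes tested were higher and 17.1% were lower. A rule after the study's methods, P under 0.05 and a log fold change of over 0.25 (base 2 was used here, as the methods name no base), also gave 5 higher and 1 lower members, against 21.6% and 16.6% of all genes. The groups did not overlap for 6 of the 7 members, nor for 52.1% of all genes. After T lineage scaling 3 members were higher (Slfn1, Slfn4 and Slfn8; 3.54% of all genes), 2 were lower (Slfn3 and Slfn9; 71.3% of all genes) and 2 were not called. Members that were called moved up in 83.3% of calls before that scaling and 60% after it, and all genes in 56.5% and 4.72%. The median log2 fold change of the members was 0.33, and after the scaling -0.12.

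**Figure D1:**
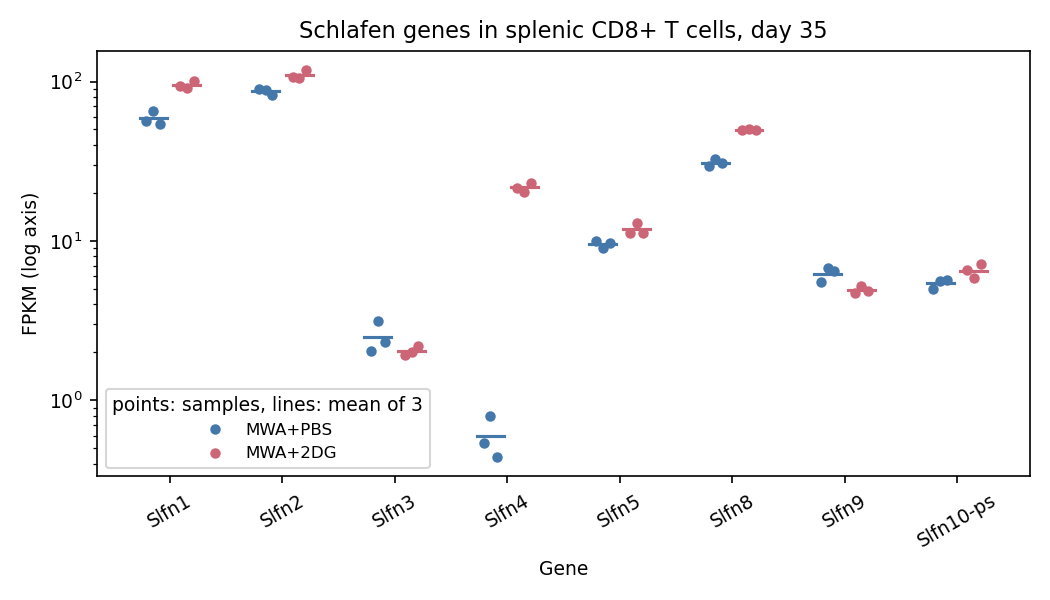
FPKM on a log axis for the 7 members and the pseudogene Slfn10-ps in each of the 6 samples (points) with the mean of 3 (lines). The Slfn4 samples spanned 0.44 to 0.80 with MWA+PBS but 20.33 to 23.21 with MWA+2DG, and only Slfn3 overlapped between the groups among the members.

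Slfn2 and Slfn1, the short members, were the most abundant Schlafen transcripts in both groups, and FPKM, which is corrected for length, placed only 311 and 425 of the 12444 genes above them on the mean of the 6 samples. Slfn1, which restrains T cell growth when it is forced on, stood at 56.16, 65.55 and 54.33 FPKM in MWA+PBS and at 93.71, 91.27 and 100.22 in MWA+2DG (ENSMUSG00000078763). The lowest treated sample lay well above the highest control. Mean levels were 58.68 ± 6.02 and 95.07 ± 4.63 (SD, n = 3), and the log2 fold change on the log2(FPKM + 1) scale was 0.69 (SE 0.080, 95% interval 0.50 to 0.88, limma adjusted p = 0.00048567). With T lineage scaling Slfn1 was still called higher, by 0.24 (adjusted p = 0.016798).

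Slfn2 keeps T cells quiescent, and its loss in mice leaves T cells that die on activation. Its levels were 90.39, 88.65 and 82.55 FPKM in MWA+PBS and 107.38, 105.17 and 117.96 in MWA+2DG (ENSMUSG00000072620), without overlap. The mean moved from 87.20 ± 4.12 to 110.17 ± 6.84 (SD, n = 3), a ratio of 1.26. The log2 fold change was 0.33 (SE 0.064, 95% interval 0.18 to 0.48, adjusted p = 0.00561), and with T lineage scaling the direction turned to -0.12 (95% interval -0.25 to 0.01, adjusted p = 0.087488). So Slfn1 gained on Slfn2: the ratio of their FPKM was 0.673 ± 0.0604 in MWA+PBS, against 0.863 ± 0.0122 in MWA+2DG. A ratio within a sample does not move with its scaling. The groups did not overlap for this ratio, and the two-sided exact permutation test gave p = 0.1, the smallest that 3 samples against 3 allow, as it did for each of the 4 ratios tested (Benjamini-Hochberg adjusted p = 0.1 for each).

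Slfn3 and Slfn4 are the intermediate members and lie next to each other, yet their values parted. Slfn4, a gene of myeloid cells that interferon and Toll-like receptor ligands induce in macrophages, was read at 0.54, 0.80 and 0.44 FPKM in MWA+PBS and at 21.39, 20.33 and 23.21 in MWA+2DG (ENSMUSG00000000204). Under 1 FPKM in all control samples, it stood above Slfn5 in all treated ones. Mean levels were 0.593 ± 0.186 and 21.6 ± 1.46 (SD, n = 3), and the log2 fold change was 3.83 (SE 0.098, 95% interval 3.60 to 4.06, adjusted p = 3.7909e-07). Slfn4 entered the test only through the samples in which it was high, so this p is not read as support beyond the values themselves. After T lineage scaling the log2 fold change was 3.38.

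Slfn3, known mostly for its part in the differentiation of gut epithelium, was low at 2.04, 3.14 and 2.32 FPKM in MWA+PBS and 1.91, 2.00 and 2.20 in MWA+2DG (ENSMUSG00000018986). The treated samples fell partly inside the control range. The means were 2.50 ± 0.572 and 2.04 ± 0.148 (SD, n = 3), and the difference was not larger than the replicate spread, with a log2 fold change of -0.19 (SE 0.12, 95% interval -0.48 to 0.10, adjusted p = 0.2534). Without MWA+PBS replicate 2, the highest sample, it was -0.07 (adjusted p = 0.60415). With T lineage scaling it was called lower, at -0.64 (adjusted p = 0.0021992).

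The rise of Slfn4 moved with the neutrophil markers. The 2 genes whose profiles over the 6 samples were most like that of Slfn4 were Ly6g, the surface marker by which neutrophils are sorted, and Lcn2, a granule protein, at root mean square differences of 0.083 and 0.18 on the log2(FPKM + 1) scale. Ly6g had 0.41, 0.83 and 0.37 FPKM in MWA+PBS and 19.57, 18.96 and 19.29 in MWA+2DG, sample by sample close to Slfn4. Both are genes of the neutrophil list, 11 of whose 12 genes were called higher (22.3% of all genes) with a median log2 fold change of 4.10. Of these, Ly6g, Retnlg, Cxcr2 and Mmp9 had under 1 FPKM on average in MWA+PBS and passed the filter only through MWA+2DG, so the count is a description. As a percentage of the summed neutrophil list, Slfn4 was 0.751 ± 0.110 in MWA+PBS, against 1.298 ± 0.109 in MWA+2DG (exact permutation p = 0.1), and the groups did not overlap. Slfn4 also passed the filter only through MWA+2DG, and its control values were under 1 FPKM. This percentage is therefore a description too, and its p is not read as support. Whether the Slfn4 transcripts came from T cells or from other cells in the sample was not tested.

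**Figure D2:**
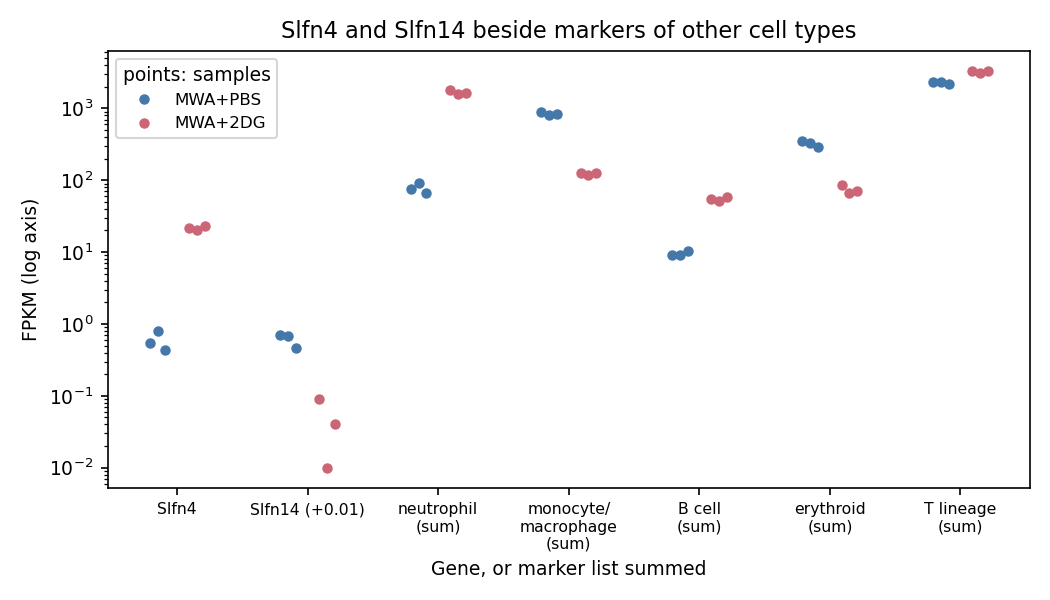
FPKM on a log axis of Slfn4, of Slfn14 (with 0.01 added so that a sample listed at 0 can be drawn) and of the summed marker lists in each sample. Slfn4 and the neutrophil sum were both higher in all MWA+2DG samples, while Slfn14 was lower beside the erythroid sum, 292 to 348 in MWA+PBS against 66.9 to 84.9 in MWA+2DG.

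Among the long members, Slfn8 rose and its neighbour Slfn9 fell. Slfn8 carries the helicase-like region of its group. Its values were 29.36, 32.66 and 30.62 FPKM in MWA+PBS and 49.75, 50.08 and 49.28 in MWA+2DG (ENSMUSG00000035208). The treated samples lay within 1 FPKM of each other and far above the controls. Mean levels were 30.9 ± 1.67 and 49.7 ± 0.402 (SD, n = 3), for a log2 fold change of 0.67 (SE 0.055, 95% interval 0.54 to 0.80, adjusted p = 8.9075e-05), and T lineage scaling left it higher by 0.22 (adjusted p = 0.013572).

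Slfn9, the next gene along the chromosome, was read at 5.51, 6.71 and 6.44 FPKM in MWA+PBS and at 4.69, 5.18 and 4.83 in MWA+2DG (ENSMUSG00000069793). The gap between the groups was small, from 5.18 to 5.51. Means were 6.22 ± 0.630 and 4.90 ± 0.252 (SD, n = 3), and the log2 fold change was -0.29 (SE 0.082, 95% interval -0.48 to -0.10, adjusted p = 0.027215). With T lineage scaling it was -0.74 (adjusted p = 0.00031031). The call was lost, in the same direction, when all genes above 0 were tested (adjusted p = 0.057955) and when MWA+PBS replicate 2 (-0.24, adjusted p = 0.06255) or 3 (-0.26, adjusted p = 0.078761), or MWA+2DG replicate 4 (-0.26, adjusted p = 0.087905) or 6 (-0.28, adjusted p = 0.077357), was left out.

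The Slfn8 to Slfn9 ratio was 5.33, 4.87 and 4.75 in MWA+PBS, against 10.6, 9.67 and 10.2 in MWA+2DG. The lowest treated ratio was well above the highest control ratio, and the means were 4.98 ± 0.304 and 10.2 ± 0.471 (SD, n = 3; exact permutation p = 0.1), a log2 difference of 1.03. Their transcripts share short stretches of sequence. In the GENCODE M21 transcripts, 15.4% of the stretches of 50 bases in Slfn8 and 11.2% of those in Slfn9 also occur in another Schlafen gene, mostly the pseudogene Slfn10-ps and each other. For Slfn4 and Slfn3, which share with each other, the figures were 8.37% and 7.97%, for Slfn2 4.27% and for Slfn1 0.606%. Over stretches of 150 bases, the share was 0 for the members other than Slfn9, which shared 1.55% with Slfn10-ps and none with Slfn8. How the authors' counting assigned reads in the shorter shared stretches was not tested.

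Slfn5, a long member that interferon induces in human and mouse cells, stood at 9.95, 9.03 and 9.63 FPKM in MWA+PBS and at 11.16, 13.00 and 11.23 in MWA+2DG (ENSMUSG00000054404). All treated samples were higher, MWA+2DG replicate 5 most of all. The mean moved from 9.54 ± 0.467 to 11.8 ± 1.04 (SD, n = 3). Its log2 fold change was 0.28 (SE 0.075, 95% interval 0.10 to 0.45, adjusted p = 0.021598), and T lineage scaling turned it to -0.17 (95% interval -0.38 to 0.04, adjusted p = 0.11662). Without MWA+2DG replicate 5 it was 0.21 (adjusted p = 0.055174). Against Slfn8, the most abundant long member, Slfn5 lost ground: the Slfn5 to Slfn8 ratio was 0.310 ± 0.0315 in MWA+PBS, against 0.237 ± 0.0194 in MWA+2DG (exact permutation p = 0.1). An antisense gene is annotated at Slfn5, and the sources used here do not state whether quantification used strand.

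**Figure D3:**
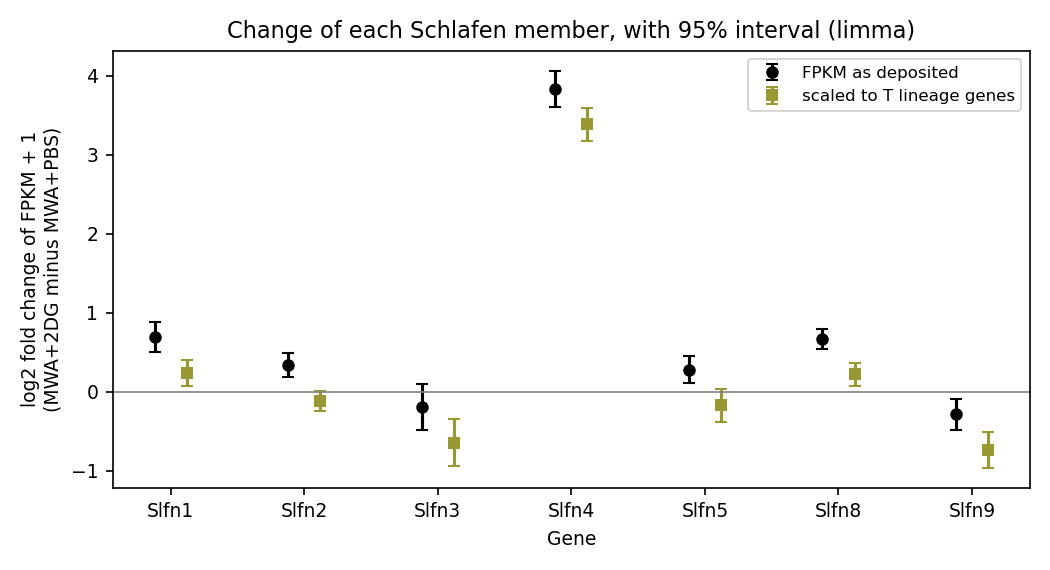
Log2 fold change of FPKM + 1 (MWA+2DG minus MWA+PBS) of each member with its 95% interval from limma, from the FPKM as deposited (circles) and after T lineage scaling (squares). Slfn1, Slfn4 and Slfn8 lay above 0 in both, Slfn9 below 0 in both, and Slfn2 (0.33 to -0.12) and Slfn5 (0.28 to -0.17) changed direction.

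Summed over the 7 members, the Schlafen transcript pool was 193.95, 206.54 and 186.33 FPKM in MWA+PBS, against 289.99, 287.03 and 308.93 in MWA+2DG, which is 0.0636% and 0.0994% of all FPKM on average. The makeup of the pool changed as well. Slfn2 supplied 44.6 ± 1.86% of it in MWA+PBS and 37.3 ± 0.802% in MWA+2DG, while Slfn4 went from 0.301% to 7.32%. The shares of Slfn1 (30.0 ± 1.55% and 32.2 ± 0.341%) and Slfn8 (15.8 ± 0.648% and 16.9 ± 0.793%) moved little. Those of Slfn5 (4.89% and 4.004%), Slfn9 (3.18% and 1.66%) and Slfn3 (1.27% and 0.689%) were smaller in MWA+2DG. These shares sum to the whole and depend on each other, so they are given with no test.

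**Figure D4:**
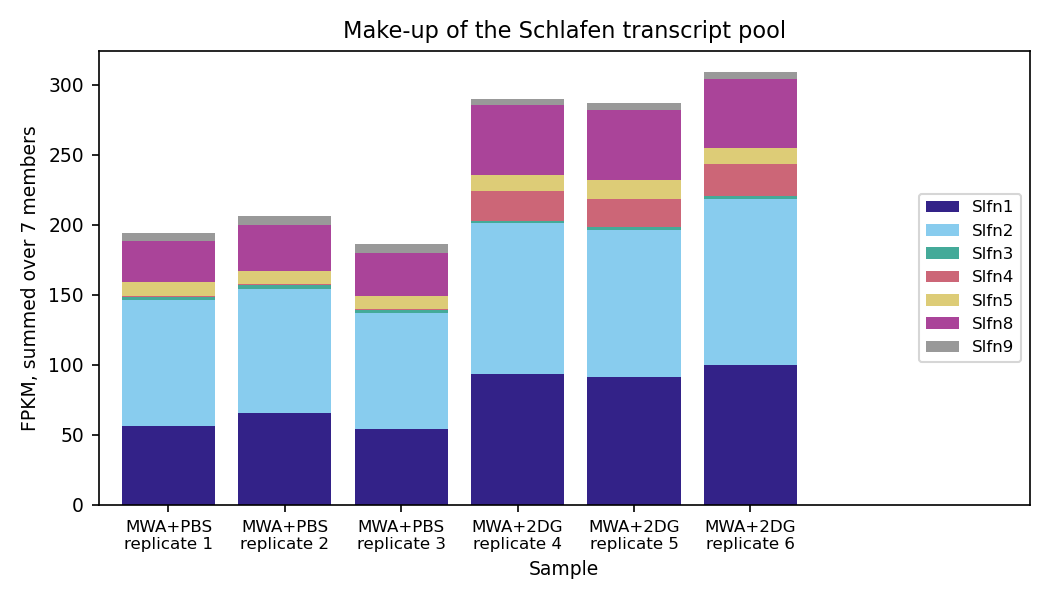
FPKM of the 7 members stacked in each of the 6 samples. The stacks reach 186.33 to 206.54 with MWA+PBS, as against 287.03 to 308.93 with MWA+2DG, and the Slfn4 band is visible only in MWA+2DG.

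The order of levels was Slfn2, Slfn1, Slfn8, Slfn5, Slfn9, Slfn3 and Slfn4 in MWA+PBS, and no neighbours in that order overlapped between samples. In MWA+2DG the order was Slfn2, Slfn1, Slfn8, Slfn4, Slfn5, Slfn9 and Slfn3, again without overlap, so that Slfn4 alone changed its place relative to the others. The gene files also list 3 Schlafen genes outside the 7. The pseudogene Slfn10-ps stood at 5.42 ± 0.397 FPKM in MWA+PBS, overlapping Slfn9, and at 6.52 ± 0.620 in MWA+2DG, above it. Its log2 fold change was 0.23 (adjusted p = 0.067421), turning to -0.23 with T lineage scaling (adjusted p = 0.043809). It was called higher without MWA+2DG replicate 5 (0.29, adjusted p = 0.042655) and with samples weighted by their spread (limma arrayWeights, 0.30, adjusted p = 0.012138). Slfn14, a ribosome-associated endonuclease of red cell and platelet precursors, was at 0.70, 0.68 and 0.45 FPKM in MWA+PBS and at 0.08, 0 and 0.03 in MWA+2DG, under the filter. Slfnl1, a Schlafen-like gene, was listed at 0 in 5 of 6 samples and at 0.09 in the other.

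Genes around the family were read from lists. In the list of interferon ligands, receptors and factors, 6 of 13 tested genes were higher (22.3% of all genes), 2 were lower (17.1% of all genes) and 5 were not called, with a median log2 fold change of 0.19 against 0.05 over all genes. The lower count was 1 when MWA+PBS replicate 1 or 3 or MWA+2DG replicate 4 or 5 was left out. Irf7, which amplifies type I interferon responses, was read at 12.73, 13.96 and 11.74 FPKM in the controls and at 26.07, 20.70 and 25.30 in the treated samples. The groups lay far apart, at a log2 fold change of 0.85 (adjusted p = 0.00050782), and Irf7 was also called higher with T lineage scaling. The receptor chain Ifnar1 rose by 0.50 (adjusted p = 0.00025434), but with T lineage scaling it was at 0.05 and not called (adjusted p = 0.51595). The kinase Jak1 (0.22, adjusted p = 0.011316) and the factors Irf9 (0.30, adjusted p = 0.0078912) and Irf1 (0.30, adjusted p = 0.015124) also rose, but T lineage scaling reversed all 3. Both chains of the interferon gamma receptor fell, Ifngr2 at -0.51 (adjusted p = 0.0021555) and Ifngr1 at -0.21 (adjusted p = 0.026832). Not called were Tyk2 (0.19), Stat2 (0.14), Jak2 (0.12), Ifng (-0.04) and Ifnar2 (-0.08), and T lineage scaling turned the first 3 of these below 0. After that scaling 2 of the 13 genes were higher and 9 lower, where 3.54% and 71.3% of all genes were.

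Of 30 tested interferon-induced genes outside the family, 25 were higher, none was lower and 5 were not called, with a median of 0.49, while 22.3% of all genes were higher and 17.1% lower. After T lineage scaling 10 were higher and 8 lower, beside 3.54% and 71.3% of all genes. The largest changes were those of Ifit3 (1.22, adjusted p = 1.1547e-05) and Ifit3b (1.13, adjusted p = 0.00020931), close paralogues that may share reads. The smallest among the called genes were those of the RNA editor Adar (0.23) and the RNA sensor Ifih1 (0.24), both of which T lineage scaling reversed. Slfn1 and Slfn8 thus lay above the median of this list, and Slfn2 and Slfn5, with the same reversal, below it.

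The quiescence list, genes that hold T cells at rest as Slfn2 does, had 2 of 15 genes higher, 5 lower and 8 not called, with a median of -0.05, beside 22.3% of all genes higher and 17.1% lower. The higher count was 1 without MWA+PBS replicate 1 or 3 or MWA+2DG replicate 5. Foxo1, a transcription factor of resting T cells, rose by 0.47 (adjusted p = 0.0011699; with T lineage scaling 0.02 and not called, adjusted p = 0.84062), and Btg2, an antiproliferative gene, by 0.25 (adjusted p = 0.017628), reversed by T lineage scaling. Tsc22d3, a glucocorticoid-induced gene, fell to -0.78 (adjusted p = 5.4659e-05), and Zfp36, which destabilises cytokine mRNAs, to -0.73 (adjusted p = 8.4055e-05). After T lineage scaling none of the 15 was higher and 13 were lower, as were 71.3% of all genes. In the proliferation list 13 of 14 genes were lower and 1 was not called, with a median of -0.75, and all 14 were lower after the scaling, beside the same 17.1% and 71.3% of all genes. The mitotic genes Aurkb (-1.05, adjusted p = 0.00020354) and Ccna2 (-0.96, adjusted p = 0.00033743) fell most, and the replication helicase genes Mcm2 (-0.19, adjusted p = 0.017517) and Mcm3 (-0.32, adjusted p = 0.0021459) least among those called. Of 4 tested genes that cleave or protect tRNA, the process in which Slfn2 acts, only the tRNA methyltransferase gene Trdmt1 was called (0.39, adjusted p = 0.013316), and T lineage scaling turned it to -0.06. That is 25% of the list, beside 22.3% of all genes higher, and no gene of the list was called without MWA+2DG replicate 4.

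**Figure D5:**
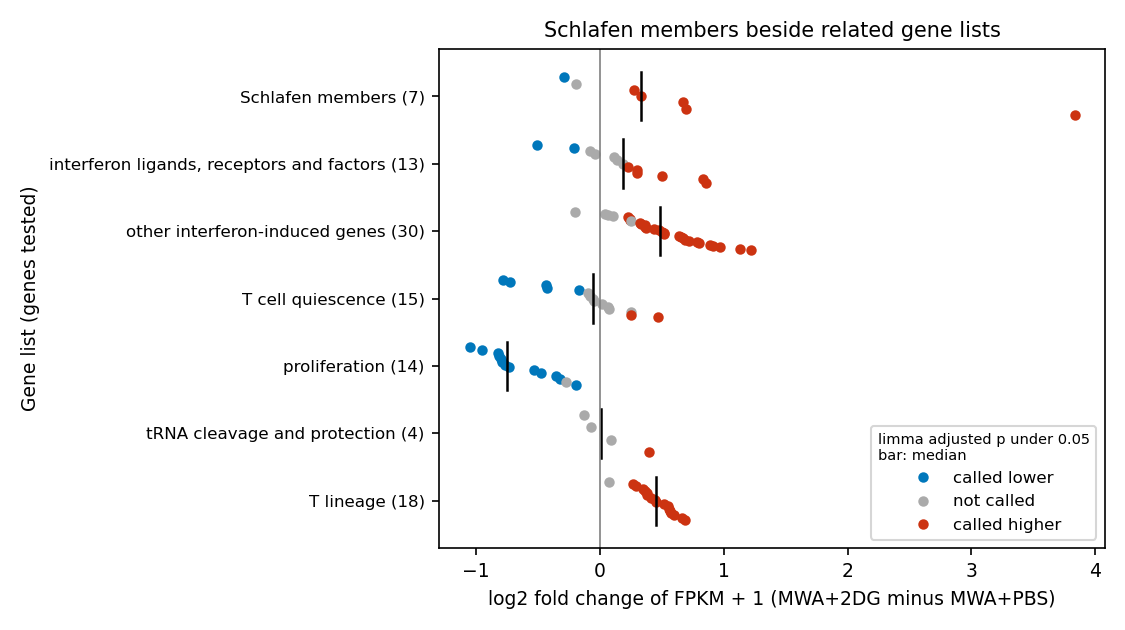
Log2 fold change of FPKM + 1 (MWA+2DG minus MWA+PBS) of each tested gene by list, coloured by its limma call at adjusted p under 0.05, with the list median as a bar. Members spread from -0.29 for Slfn9 to 3.83 for Slfn4 and, like the interferon-induced genes (median 0.49), lay mostly above 0, but with T lineage scaling Slfn2 and Slfn5 lay below 0.

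The genes with the profiles most like those of the other members were picked by the root mean square difference of log2(FPKM + 1) over the 6 samples after centring each gene. For Slfn1 they were the T cell receptor segment Trav6-6 (0.031) and the zinc finger gene Zfp866 (0.032). For Slfn2 they were Iars2 (0.022), a mitochondrial isoleucyl-tRNA synthetase gene, and Fyn (0.028), a kinase of T cell receptor signalling. The nearest to Slfn8 were Sfi1 (0.028) and the phosphatase gene Ptpn4 (0.032), and to Slfn5 D17H6S53E (0.021) and the transcription factor gene Gtf2a1 (0.025). Slfn3 was nearest to Hmgb1-ps1 (0.044) and Hsf2 (0.053), and Slfn9 to Cep85l (0.035) and Angptl4 (0.039). Likeness by this measure follows the size of the change between the groups, so a member can be near only genes with a change of like size, Slfn4 included.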

How the data were processed

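Poly(A) RNA of splenic CD8+ T cells (3 MWA+PBS and 3 MWA+2DG samples) was sequenced in paired-end libraries made with a dUTP strand protocol and molecular identifiers. The deposited values are FPKM per gene, estimated by the authors with HISAT2 (2.0.4) and StringTie (1.3.4d); the submitters' processing notes also name cutadapt 1.9, UMI-tools and the mm9 build, and the annotation release was not stated in the sources at hand. FPKM keeps no read depth, so depth is unknown. FPKM totals ran from 291803 to 313257 per sample. No mm9 reference was used, and the GRCm38 promoter, gene and transcript tables served for sequences, gene order and symbols only, and 28689 of 28773 identifiers had a symbol.

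Genes with a mean of at least 1 FPKM (12444) were fitted on log2(FPKM + 1) with limma 3.58.1 in R 4.3.3 (eBayes with trend, two-sided, no covariates), a scale that shrinks changes of weakly expressed genes; the fit was tested on simulated data. Ratios were compared by exact permutation tests in SciPy 1.17.1, and promoters were aligned with Biopython 1.88. The alternatives were other scalings (T lineage, quantile, median ratio, leaving out dominant gene classes), pseudocounts, filters, sample weights (arrayWeights), no trend and each sample left out. The members and lists were chosen with earlier results of these data known. Genes named were the members, the other Schlafen genes, all tested interferon ligands, receptors and factors, the 2 largest and 2 smallest called changes of each other pathway list, the 2 most similar profiles per member and genes flanking the cluster (3 on each side); some of these are not reported here. Ifnb1 and 1 natural killer cell gene had no value in the files used here.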

Additional observations from a re-analysis of the deposited data

How the results depend on the processing

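Apart from T lineage scaling, the alternatives left the direction of every member as it was. By adjusted p, Slfn1 and Slfn8 were called in all 15 alternatives tried, at log2 fold changes of 0.24 to 0.77 and 0.22 to 0.71. Slfn4, which entered the test through MWA+2DG alone, had values of 3.38 to 5.00. T lineage scaling gave -0.12 for Slfn2, -0.64 for Slfn3, -0.17 for Slfn5 and -0.23 for Slfn10-ps, with 3 members higher, 2 lower and 3 called by the study's rule. It called 9313 genes, 13 quiescence genes and 3 tRNA genes; as built, it lowers every value alike. Testing all genes above 0 left Slfn9 at -0.29 (adjusted p = 0.057955) and 0 members lower; more genes were tested. A mean of at least 5 FPKM left 7313 genes with 2951 calls, 7 of 8 proliferation genes, 0 tRNA genes and no value for Slfn3. Median ratio scaling called 2 tRNA genes, for which the cause was not tested. Requiring a log2 fold change beyond 1 left 1 member by the study's rule, Slfn4. With samples weighted by their spread, Slfn3 was at -0.07 (adjusted p = 0.59549). With 1 sample left out in turn, Slfn3 ran from -0.29 to -0.07 (adjusted p from 0.12818 to 0.60415), Slfn5 ran from 0.21 to 0.31 (adjusted p from 0.036109 to 0.055174), Slfn9 from -0.36 to -0.24 (adjusted p from 0.015999 to 0.087905), the members lower from 0 to 1 and the tRNA genes from 0 to 1.

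No paired analysis was possible because the replicate numbers of the groups (1 to 3 and 4 to 6) are not shared. The read depth behind the FPKM is unknown, so the low values of Slfn3, Slfn4 and Slfn14 have no counting interval.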

Other observations

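Values of protein-coding genes that flank the Schlafen cluster are given for comparison. On the side of Slfn5, Nle1, a ribosome assembly factor gene, stood at 7.42 ± 0.744 FPKM in MWA+PBS, against 8.41 ± 0.288 in MWA+2DG (SD, n = 3; log2 fold change 0.16, limma adjusted p = 0.136), and Fndc8 and Unc45b were at or under 0.26 FPKM in every sample. On the side of Slfn14, Ap2b1, a clathrin adaptor gene, was at 26.2 ± 1.87 and 24.4 ± 0.673 (-0.10, limma adjusted p = 0.267), and Rasl10b was at or under 0.05 FPKM.

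When all genes above 0 in at least 1 sample were tested, Slfn14 was lower in MWA+2DG, at a log2 fold change of -0.63 on the log2(FPKM + 1) scale (limma adjusted p = 0.0033094). All 8 genes of the erythroid list, tested with the filter, were lower too (17.1% of all genes), with a median of -1.72. Their part in the Slfn14 value was not tested.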
